A study of Arabidopsis thaliana with 24 samples.

Results

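The genes described here are 10 Arabidopsis thaliana genes of intracellular immunity, 10 of the 27664 genes listed for every library. They comprise 5 sensor NLR genes (RPM1, RPS2, ZAR1, RPS4 and SNC1), 2 helper NLR genes (ADR1 and ADR1-L1) and the 3 genes of the EDS1 family (EDS1, PAD4 and SAG101). The set was chosen on these libraries, because NLR genes as a class had been seen to be slightly lower in grf6 grf8 than in WT. The genotype differences of these genes are therefore given as a description and without a test, and the tests below concern their change with dehydration. Whether that change differed between genotypes was tested too, but such a difference is built from the genotype differences on which the set was chosen. All 10 genes passed the filter on low counts, with 108 to 6822 counts in each library.

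Messenger RNA was sequenced from rosette leaves of grf6 grf8 double mutants, which carry lesions in the 14-3-3 genes GRF6 and GRF8, and of wild type (WT). Plants of both genotypes were transferred from plates to soil at an age of 12 days and sampled at 24 days, and leaves were taken after 0, 2 and 4 h of dehydration, with 4 libraries in each of the 6 groups. The mutant alleles and whether a library came from a single plant or a pool are not given in the sources used here, so p-values measure the spread between these libraries, which may be technical. No watered plants of 2 h or 4 h belong to the groups, so dehydration and elapsed time cannot be told apart. The libraries held 17365357 to 22380487 counts.

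NLR proteins are receptors inside the plant cell that detect pathogen effectors, directly or through the host proteins those effectors modify. Sensors with an N-terminal coiled coil (CNL), such as RPM1, RPS2 and ZAR1, can form membrane pores themselves, whereas sensors with a TIR domain (TNL), such as RPS4 and SNC1, are enzymes whose small-molecule products are read by EDS1. EDS1 pairs with PAD4 or SAG101, and these pairs act with helper NLRs of the RPW8 type. The EDS1 and PAD4 pair works with ADR1 and ADR1-L1 and leads to salicylic acid synthesis and cell death. Transcript levels of these genes in leaves are known to follow salicylic acid and to be held in check, since too much NLR activity stunts growth.

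What the 7 NLR genes have in common in sequence is the nucleotide-binding loop (P-loop) of their central domain, which holds the ADP or ATP that sets the receptor off or on. It was found in the coding sequence of each of the 7 genes as glycine, any 4 residues, glycine, lysine and then threonine or serine. The codons of the CNL sensors and the helpers are printed 5′ to 3′ on the coding strand from RefSeq build TAIR10.1, with the codon of the conserved lysine in capitals, to show how far receptors that share the site differ around it.
RPM1 (chr3:2228404-2228427, minus strand): gggatgggcggttcagggAAAact
RPS2 (chr4:13225139-13225162, plus strand): ggacctggtggggttgggAAGaca
ZAR1 (chr3:18936691-18936714, plus strand): gggatgggagggctaggtAAAact
ADR1 (chr1:12169668-12169691, plus strand): ggaatgagcggttcagggAAAacc
ADR1-L1 (chr4:16053364-16053387, minus strand): ggaatgggcggtgttggtAAAacc

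EDS1 and PAD4 belong to a lipase-like family, and the serine of the pattern glycine, any residue, serine, any residue, glycine is kept in both. The codons are shown with that of the serine in capitals. The pattern was not found in the annotated coding sequence of SAG101.
EDS1 (chr3:17757242-17757256, minus strand): ggacatTCCtcagga
PAD4 (chr3:19433012-19433026, plus strand): ggccatTCAaccggc

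Positions are given in build TAIR10.1. How well reads can be assigned differed between the genes. EDS1 lies 138 bases from a tandem copy, AT3G48080, which shares 82.0% of aligned coding positions, but 0.977% of the 50-base windows of EDS1 exons occur elsewhere in the genome. SNC1 belongs to a cluster with RPP4, and 21.2% of the exonic windows of SNC1 occur elsewhere, so its level is uncertain by an amount that was not computed. For ADR1-L1 the share was 3.56% and for PAD4 0.278%, and for the other 6 genes it was 0. A lncRNA, AT4G26095, runs opposite to RPS2 over 3285 bases, an antisense RNA opposite to ZAR1 over 2367 bases and the lncRNA AT4G08785 opposite to ADR1-L1 over 1944 bases. None of those 3 is listed in the files and the counting is not stated to use strand, so reads of the sense and antisense RNAs cannot be told apart.

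The libraries were checked before the results. GRF6 was at 19.5% of WT at 0 h, 10.6% at 2 h and 8.23% at 4 h in grf6 grf8, and GRF8 was at 28.6% at 0 h (edgeR quasi-likelihood test, adjusted p = 2.5e-05 for GRF6 and 1.75e-05 for GRF8 at 0 h). GRF8 did not pass at 2 h or 4 h (adjusted p = 1 and 0.173), with 80.2 to 90.3 CPM against 102 to 141 CPM in WT at 2 h. Summed leaf markers (CPM, counts scaled to library size) had medians of 46214, 30510 and 14155 CPM at 0, 2 and 4 h in grf6 grf8 and of 51622, 27850 and 17100 CPM in WT, and all 4 fell at 4 h against 0 h in both genotypes, with median log2 changes of -1.29 in grf6 grf8 and -1.40 in WT. Root markers summed to at most 93.5 CPM, with CASP1 at 0 everywhere, and flower markers to at most 12.5 CPM. Cell cycle markers summed to 9.01 to 62.9 CPM, and 5 libraries were high in them (WT 2 h replicate 4, WT 4 h replicate 4, grf6 grf8 0 h replicate 1 and grf6 grf8 4 h replicates 1 and 2). WT 0 h replicate 1 was the highest of its group for 10 of 10 genes described here, where it was the highest for 27.3% of all genes tested. It also held 261 CPM of PR1, the salicylic acid marker, against 10.9 to 53.6 CPM in the other 3 libraries of WT at 0 h. The library grf6 grf8 2 h replicate 3 was the lowest of its group for 9 of the 10 genes, where it was the lowest for 30.7% of all genes, and held 2.66 CPM of PR1 against 33.5 to 170.2 CPM in the others. At 0 h in grf6 grf8, replicate 1 was the highest for 8 of the 10 genes (28.4% of all genes) and held 130 CPM of PR1. The other libraries of that group held 31.6 to 51.7 CPM. Replicate 3 of that group was the lowest for 8 of the 10 (24.6% of all genes), as was WT 4 h replicate 1 in its group (17.9%).

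**Figure D1:**
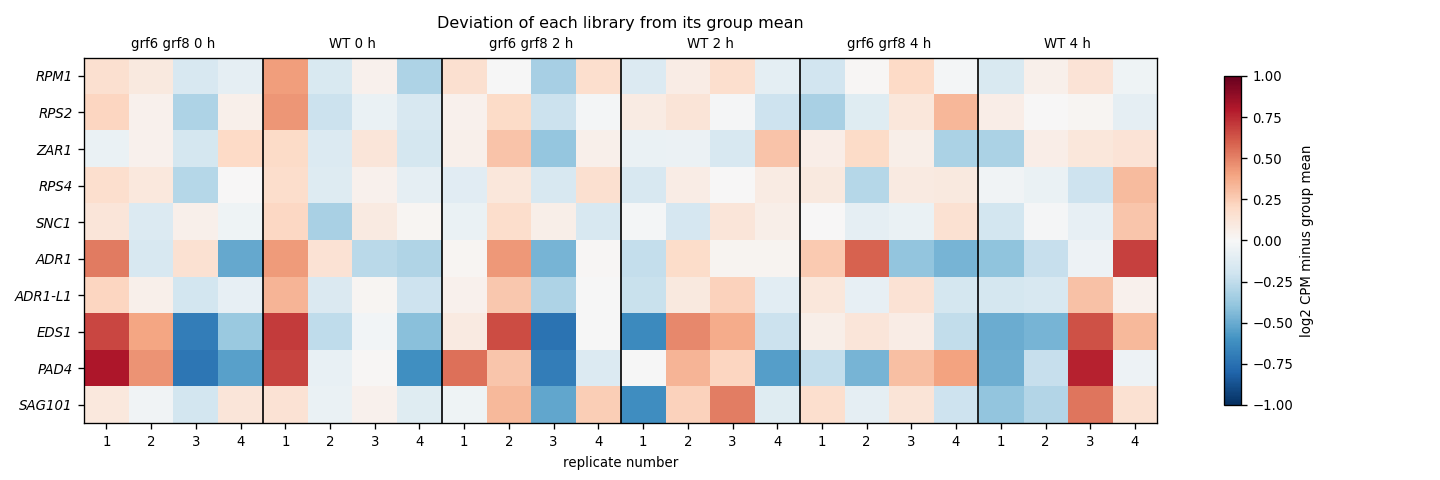
Difference in log2 CPM between each library and the mean of its group, for the 10 genes (rows) in the 24 libraries (columns, by group and replicate). WT 0 h replicate 1 lies above its group mean for all 10 genes, grf6 grf8 2 h replicate 3 lies below for all but SNC1, and EDS1 and PAD4 vary most.

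The genes differed widely in abundance per transcript length. By FPKM (fragments scaled to transcript length and library size), ZAR1 stood first and RPM1 last in each of the 6 groups. ZAR1 averaged 69.6 ± 6.88 FPKM in grf6 grf8 and 94.5 ± 13.1 FPKM in WT at 0 h (SD, n = 4 each), and RPM1 averaged 2.95 ± 0.540 FPKM in grf6 grf8 and 3.59 ± 0.918 FPKM in WT. In WT at 0 h the order below ZAR1 was ADR1-L1 at 61.4, SNC1 at 43.3, PAD4 at 43.0, SAG101 at 19.6, EDS1 at 16.3, RPS4 at 13.6, RPS2 at 7.26 and ADR1 at 4.13 FPKM. Of the neighbours in that order, SNC1 and PAD4, SAG101 and EDS1, EDS1 and RPS4, and ADR1 and RPM1 overlapped between libraries, and the other pairs did not. The helper ADR1-L1 was thus far more abundant than the helper ADR1, with 48.5 against 3.72 FPKM in grf6 grf8 and 61.4 against 4.13 FPKM in WT at 0 h. RPS2 changed its place in the order most, with place 4 at 2 h and place 8 at 0 h in grf6 grf8, and place 5 at 2 h and place 8 at 0 h in WT.

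During dehydration RPS2 rose in both genotypes at both times, and ZAR1, RPS4, SNC1 and SAG101 fell in both by 4 h. After 2 h against 0 h, 5 of 10 rose and none fell in grf6 grf8 (RPS2, ADR1, ADR1-L1, EDS1 and PAD4), where 23.2% of the 18841 genes tested rose and 20.3% fell. That count of 5 was 3 without grf6 grf8 0 h replicate 3 or replicate 4, and DESeq2 called SNC1 as fallen besides. In WT, 2 rose (RPS2 and ADR1) and 2 fell (RPS4 and SNC1) at 2 h, against 23.1% and 19.2% of all genes. After 4 h against 0 h, 1 rose (RPS2) and 4 fell (ZAR1, RPS4, SNC1 and SAG101) in grf6 grf8, where 28.1% of all genes rose and 23.1% fell. In WT at 4 h, 2 rose (RPS2 and ADR1) and 5 fell (RPM1, ZAR1, RPS4, SNC1 and SAG101), against 27.8% and 22.2% of all genes. The shares of members that fell by 4 h lay above, and those that rose below, the shares over all genes in both genotypes. With 10 genes these gaps rest on few members, and the 4 h calls of RPM1 and ADR1 in WT were lost in some alternatives. The gaps were not tested and are no result about the set. A gene is said to have risen or fallen at an adjusted p under 0.05 in the edgeR quasi-likelihood test, adjusted over all 18841 genes by the Benjamini-Hochberg method. All 4 leaf markers fell by 4 h as well, and their part in the falls of the members was not tested. In whole leaves, fewer cells of a kind and less RNA per cell cannot be told apart.

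Between 2 h and 4 h, 8 of the 10 genes fell in grf6 grf8, all but EDS1 and PAD4, and none rose, where 5.79% of all genes fell and 6.34% rose. Their log2 fold changes lay between -0.97 and -0.60 for all 10 genes, with a median of -0.73 beside 0.06 over all genes tested. In WT none of the 10 was called for this step, where 2.12% of all genes fell and 2.57% rose. An unadjusted p under 0.05 was reached by 4 of the 10, beside 3793 of the 18841 genes tested. Of the 10, 9 had a log2 fold change below 0, with a median of -0.33 beside 0.03. With a cell cycle score as covariate RPM1, RPS4 and ZAR1 passed in WT (adjusted p = 0.0324, 0.0442 and 0.0428). DESeq2 called 1 of them in WT, RPM1 (adjusted p = 0.0434), and edgeR called 1, RPS4, without WT 4 h replicate 4 (-0.50, adjusted p = 0.0139) or without the 5 libraries high in cell cycle transcripts (-0.42, adjusted p = 0.0225). The count of 8 in grf6 grf8 was 6 to 8 when single libraries were left out, and 7 without the 5 libraries high in cell cycle transcripts. Over the same step in grf6 grf8, 3 of 11 cell cycle markers rose (median log2 change 1.89) and 1 of 4 leaf markers fell (median -0.69), where 0 of 11 and 0 of 4 were called in WT (medians 0.88 and -0.53). The part of these markers in the step was not tested. Whether the step differed between the genotypes was tested as an interaction, a test added after the data had been seen. With edgeR it called none of the 10 genes and 0% of all genes, 411 of which had an unadjusted p under 0.05, and with DESeq2 it called none of the 10, while 3 members had an unadjusted p under 0.05 (RPS2, SNC1 and PAD4) and all 10 differences were below 0, with a median of -0.40 beside 0.01 over all genes. The step and the 2 h response share the 2 h libraries. This interaction is the genotype difference at 4 h minus that at 2 h, and the genes were chosen on genotype differences. Its signs and unadjusted p-values in the members are therefore a description, of genes measured in the same libraries.

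The differences of the 2 h and the 4 h response between grf6 grf8 and WT were also tested as interactions. Neither called any of the 10 genes with edgeR or DESeq2, and each called 0.00531% of all genes with edgeR. Each interaction is the genotype difference at 2 h or 4 h minus that at 0 h, and the genes were chosen on genotype differences. Signs and unadjusted p-values of the members are therefore a description. For the 2 h response, 2 members had an unadjusted p under 0.05 (RPS4 and ADR1-L1), beside 467 of the 18841 genes tested. All 10 differences were above 0, with a median of 0.29 beside -0.01 over all genes. Without WT 0 h replicate 1 the median was 0.11, and 1 of the 10 lay below 0. For the 4 h response no member had an unadjusted p under 0.05, beside 449 of the 18841 genes. The median was -0.12 beside 0.00, and 6 of the 10 lay below 0. Without WT 0 h replicate 1 that median was -0.28, with 8 of the 10 below 0, and without the 5 libraries high in cell cycle transcripts it was 0.0044, with 4 below 0.

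**Figure D2:**
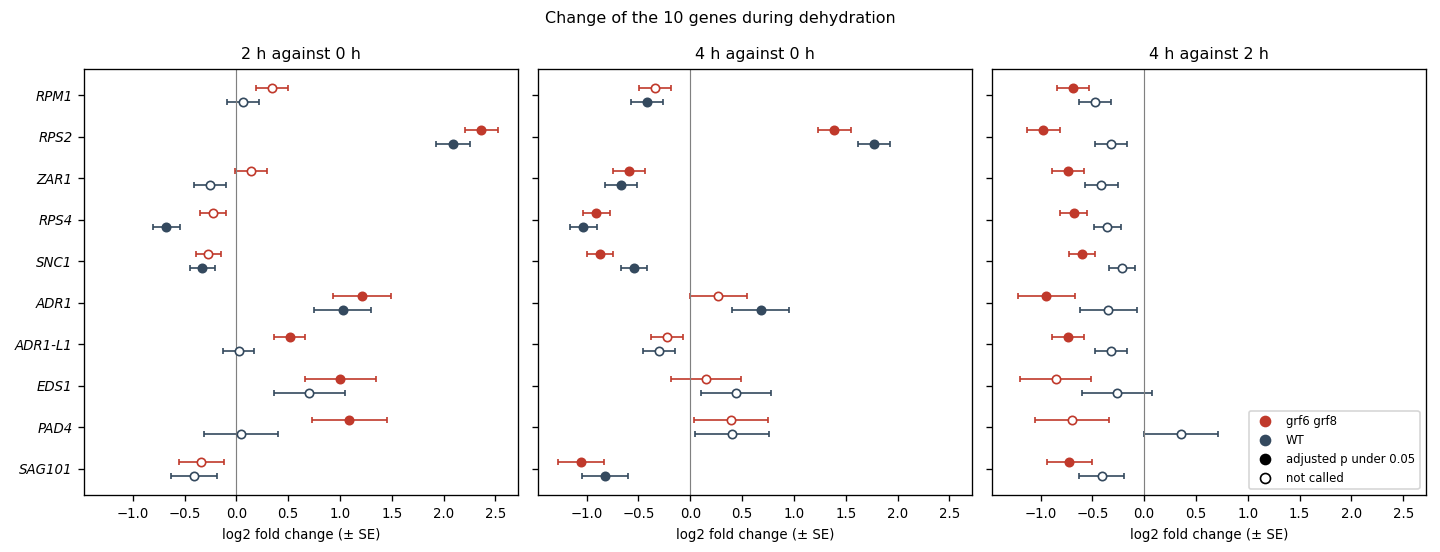
Log2 fold change with its SE for each of the 10 genes between times, in grf6 grf8 (red) and WT (dark). Filled points passed an adjusted p of 0.05, and in the 4 h against 2 h panel the grf6 grf8 points all lie between -0.97 and -0.60.

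RPS2 (AT4G26090, chr4:13224338-13227872, plus strand), a CNL that guards the host protein RIN4 and responds to its loss, rose most of the 10 genes. In grf6 grf8, RPS2 measured 28.1, 25.0, 19.5 and 25.0 CPM at 0 h, 129, 143, 108 and 123 CPM at 2 h, and 50.4, 58.0, 68.5 and 79.4 CPM at 4 h. In WT, RPS2 measured 33.7, 21.3, 23.6 and 22.1 CPM at 0 h, 113, 117, 106 and 92.6 CPM at 2 h, and 90.0, 86.3, 87.1 and 81.0 CPM at 4 h. Every dehydrated library lay above every 0 h library of its genotype, and the 2 h and 4 h libraries of each genotype did not overlap. At 2 h the level was 5.15-fold that of 0 h in grf6 grf8 (log2 2.36, SE 0.16, adjusted p = 9.6e-10) and 4.26-fold in WT (log2 2.09, SE 0.16, adjusted p = 4.11e-09). At 4 h it was 2.62-fold in grf6 grf8 (adjusted p = 3.59e-07) and 3.42-fold in WT (adjusted p = 1.75e-08). From 2 h to 4 h it fell in grf6 grf8 by 0.97 on the log2 scale (SE 0.15, adjusted p = 0.000478) and changed by -0.32 in WT (SE 0.15, adjusted p = 0.252). The difference of this step did not pass, with an unadjusted p of 0.00653 and an adjusted p of 1. The unadjusted value is a description only, since the genes were chosen on genotype differences. The gene AT4G26100, whose 3′ end overlaps that of RPS2 by 423 bases on the other strand, averaged 34.5, 59.1 and 69.9 CPM in grf6 grf8 at 0, 2 and 4 h and 32.8, 55.8 and 67.0 CPM in WT. Its part in the RPS2 counts was not tested.

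RPM1 (AT3G07040, chr3:2225855-2229555, minus strand), another CNL that guards RIN4, was the least abundant of the 10. In grf6 grf8, RPM1 ranged from 7.96 to 9.94 CPM at 0 h, 8.97 to 12.7 CPM at 2 h and 6.17 to 8.08 CPM at 4 h. In WT, RPM1 ranged from 8.59 to 14.2 CPM at 0 h, 10.3 to 12.7 CPM at 2 h and 7.32 to 8.93 CPM at 4 h. The 4 h libraries lay below the 2 h libraries in both genotypes, and this step passed the test in grf6 grf8 (log2 -0.69, SE 0.15, adjusted p = 0.00664) but not in WT (log2 -0.48, SE 0.15, adjusted p = 0.0761). Against 0 h, RPM1 fell at 4 h in WT by 0.41 on the log2 scale (adjusted p = 0.0307), a call that was lost without WT 0 h replicate 1 (-0.26, adjusted p = 0.162), its replicate 3 (adjusted p = 0.0603) or the library WT 4 h replicate 1 (adjusted p = 0.0871), and with library totals (adjusted p = 0.0581) or only the groups compared (0.121). In grf6 grf8 the same comparison gave -0.34 (adjusted p = 0.0709), and it passed without WT 0 h replicate 1, grf6 grf8 0 h replicate 3 or grf6 grf8 4 h replicate 3 (adjusted p = 0.0443 to 0.0493). Its rise at 2 h in grf6 grf8 likewise missed (0.34, adjusted p = 0.0746) and passed without WT 0 h replicate 1 (adjusted p = 0.0492) or grf6 grf8 2 h replicate 3 (adjusted p = 0.0359). RPM1 overlaps its neighbour AT3G07050 by 201 bases on the same strand.

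ZAR1 (AT3G50950, chr3:18935674-18938799, plus strand), a CNL that monitors receptor-like cytoplasmic kinases and forms a pentameric pore, was the most abundant of the 10 per length. In grf6 grf8, ZAR1 measured 189, 204, 175 and 228 CPM at 0 h, 225, 263, 166 and 225 CPM at 2 h, and 137, 149, 136 and 105 CPM at 4 h. In WT, ZAR1 measured 303, 241, 288 and 235 CPM at 0 h, 211, 213, 199 and 270.4 CPM at 2 h, and 133, 174, 180.1 and 183 CPM at 4 h. The 4 h libraries lay below the 0 h libraries in both genotypes without overlap, and below those of 2 h. ZAR1 fell to 66.3% of its 0 h level at 4 h in grf6 grf8 (adjusted p = 0.00325) and to 62.9% in WT (adjusted p = 0.00128). At 2 h it had not passed in either genotype (log2 0.14 in grf6 grf8 and -0.26 in WT, SE 0.16 each). Without the 5 libraries high in cell cycle transcripts the WT value passed (-0.39, adjusted p = 0.0422).

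RPS4 (AT5G45250, chr5:18321764-18326175, minus strand), a TNL that works as a pair with RRS1, fell in both genotypes. The start sites of both genes lie 27 bases apart on opposite strands. In grf6 grf8, RPS4 measured 44.2, 42.4, 32.3 and 39.5 CPM at 0 h, 31.1, 36.4, 30.1 and 37.7 CPM at 2 h, and 22.5, 17.2, 22.4 and 22.4 CPM at 4 h. In WT, RPS4 measured 55.3, 44.7, 50.2 and 46.0 CPM at 0 h, 27.4, 32.2, 30.8 and 32.5 CPM at 2 h, and 23.2, 22.7, 20.6 and 29.6 CPM at 4 h. All 4 h libraries lay below all 0 h libraries of their genotype, and in WT the 2 h libraries did so as well. At 4 h RPS4 stood at 53.3% of its 0 h level in grf6 grf8 (log2 -0.91, SE 0.13, adjusted p = 7e-06) and at 48.9% in WT (log2 -1.03, SE 0.13, adjusted p = 1.6e-06). At 2 h it had fallen in WT by 0.68 (adjusted p = 0.000264), and gave -0.23 in grf6 grf8 (adjusted p = 0.161). The difference between these responses did not pass, with an unadjusted p of 0.0222 and an adjusted p of 1. As the genes were chosen on genotype differences, the unadjusted value is a description only. The partner RRS1 averaged 22.8, 18.3 and 12.6 CPM in grf6 grf8 and 26.0, 21.3 and 15.4 CPM in WT at 0, 2 and 4 h, and it fell at 4 h to 55.4% in grf6 grf8 (adjusted p = 9.11e-07) and to 59.3% in WT (adjusted p = 4.33e-06).

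SNC1 (AT4G16890, chr4:9500271-9505972, minus strand), a TNL whose gain-of-function allele gives constitutive defence and dwarfism, also fell. In grf6 grf8, SNC1 measured 150.1, 126, 143 and 134 CPM at 0 h, 109, 129, 119 and 102 CPM at 2 h, and 75.6, 71.0, 72.2 and 84.2 CPM at 4 h. In WT, SNC1 measured 191, 132, 176 and 168 CPM at 0 h, 131, 118, 144 and 138 CPM at 2 h, and 100.2, 113, 108 and 137 CPM at 4 h. The grf6 grf8 libraries of 4 h lay below all other libraries of both genotypes, while the WT libraries of 4 h overlapped those of 0 h and 2 h. The level at 4 h was 54.8% of that at 0 h in grf6 grf8 (log2 -0.87, SE 0.12, adjusted p = 6.99e-06) and 68.6% in WT (log2 -0.54, SE 0.12, adjusted p = 0.00103). In WT it had fallen by 0.33 at 2 h (adjusted p = 0.0376), a call lost without WT 0 h replicates 1, 3 or 4, WT 2 h replicates 1 or 2, or grf6 grf8 4 h replicate 1 (adjusted p up to 0.123), and with library totals (adjusted p = 0.168) or only the groups compared (0.0885). In grf6 grf8 the 2 h value was -0.27 (adjusted p = 0.0826), which passed without WT 4 h replicate 4 (adjusted p = 0.0492), with a stricter low-count filter (0.0447) and with DESeq2 (0.0496). RPP4, a TNL of the same cluster that recognises a downy mildew strain, averaged 120.3, 107 and 62.3 CPM in grf6 grf8 and 153, 125 and 72.2 CPM in WT, and fell at 4 h to 51.8% in grf6 grf8 (adjusted p = 2.91e-05) and 47.3% in WT (adjusted p = 6.87e-06). Of the exonic windows of RPP4 29.1% occur elsewhere in the genome, so its level is uncertain as well. Whether these windows lie in SNC1 was not examined.

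Of the helpers, which relay signals from sensors and EDS1 pairs, ADR1 (AT1G33560, chr1:12168768-12172119, plus strand) rose at 2 h in both genotypes. In grf6 grf8, ADR1 measured 14.2, 8.85, 11.0 and 6.92 CPM at 0 h, 23.5, 31.4, 16.8 and 23.3 CPM at 2 h, and 14.1, 17.7, 8.96 and 8.53 CPM at 4 h. In WT, ADR1 measured 15.0, 12.3, 9.24 and 9.03 CPM at 0 h, 19.6, 26.2, 23.5 and 23.5 CPM at 2 h, and 13.2, 14.9, 16.9 and 28.0 CPM at 4 h. In both genotypes the 2 h libraries lay above those of 0 h without overlap. ADR1 at 2 h was 2.32-fold its 0 h level in grf6 grf8 (log2 1.21, SE 0.28, adjusted p = 0.00134) and 2.03-fold in WT (log2 1.02, SE 0.27, adjusted p = 0.00492). At 4 h against 0 h it was called in WT alone (log2 0.68, adjusted p = 0.0446, against 0.27 and 0.433 in grf6 grf8), and the difference of the 4 h response did not pass (-0.41, SE 0.39, adjusted p = 1). The WT call was lost in 18 of 33 alternatives. It gave 0.38 (adjusted p = 0.246) without WT 4 h replicate 4, the library at 28.0 CPM, which was also high in cell cycle transcripts, and 0.38 (adjusted p = 0.132) without the 5 libraries high in them. It was lost with library totals (adjusted p = 0.112), with only the groups compared (0.0682), without the low-count filter (0.0593) and with a stricter one (0.0559). It was also lost, at adjusted p of 0.0508 to 0.125, without WT 0 h replicates 2, 3 or 4, WT 2 h replicates 2, 3 or 4, WT 4 h replicate 3, grf6 grf8 0 h replicates 2 or 3, grf6 grf8 2 h replicates 1 or 4, or grf6 grf8 4 h replicate 1. The fall of ADR1 from 2 h to 4 h in grf6 grf8 (log2 -0.94, adjusted p = 0.029) was lost without grf6 grf8 2 h replicates 1, 2 or 4 or grf6 grf8 4 h replicates 3 or 4 (adjusted p up to 0.0973), and with library totals (adjusted p = 0.139) or only the groups compared (0.0699).

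ADR1-L1 (AT4G33300, chr4:16050456-16056526, minus strand), the more abundant helper, passed the test at 2 h in grf6 grf8 and in no comparison of WT times, and the difference between the genotypes did not pass. In grf6 grf8, ADR1-L1 measured 163, 146, 124 and 133 CPM at 0 h, 205, 241, 161 and 199 CPM at 2 h, and 130.0, 114, 133 and 107 CPM at 4 h. In WT, ADR1-L1 ranged from 153 to 223 CPM at 0 h, 154 to 211 CPM at 2 h and 127 to 176 CPM at 4 h. The grf6 grf8 libraries of 2 h lay above all those of 4 h, whereas the WT libraries of the 3 times overlapped. ADR1-L1 rose to 1.43-fold at 2 h in grf6 grf8 (log2 0.51, SE 0.15, adjusted p = 0.0101, and 0.0676 when scaled by library totals) and gave 0.02 in WT (adjusted p = 0.924). It fell from 2 h to 4 h in grf6 grf8 (log2 -0.74, adjusted p = 0.00386) and gave -0.32 in WT (adjusted p = 0.245). The difference of the 2 h response was 0.49 (SE 0.22, unadjusted p = 0.0339, adjusted p = 1), a description only, since the genes were chosen on genotype differences. Against 0 h, WT at 4 h gave -0.30 (adjusted p = 0.111), which passed without WT 4 h replicate 3 (-0.41, adjusted p = 0.0427).

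**Figure D3:**
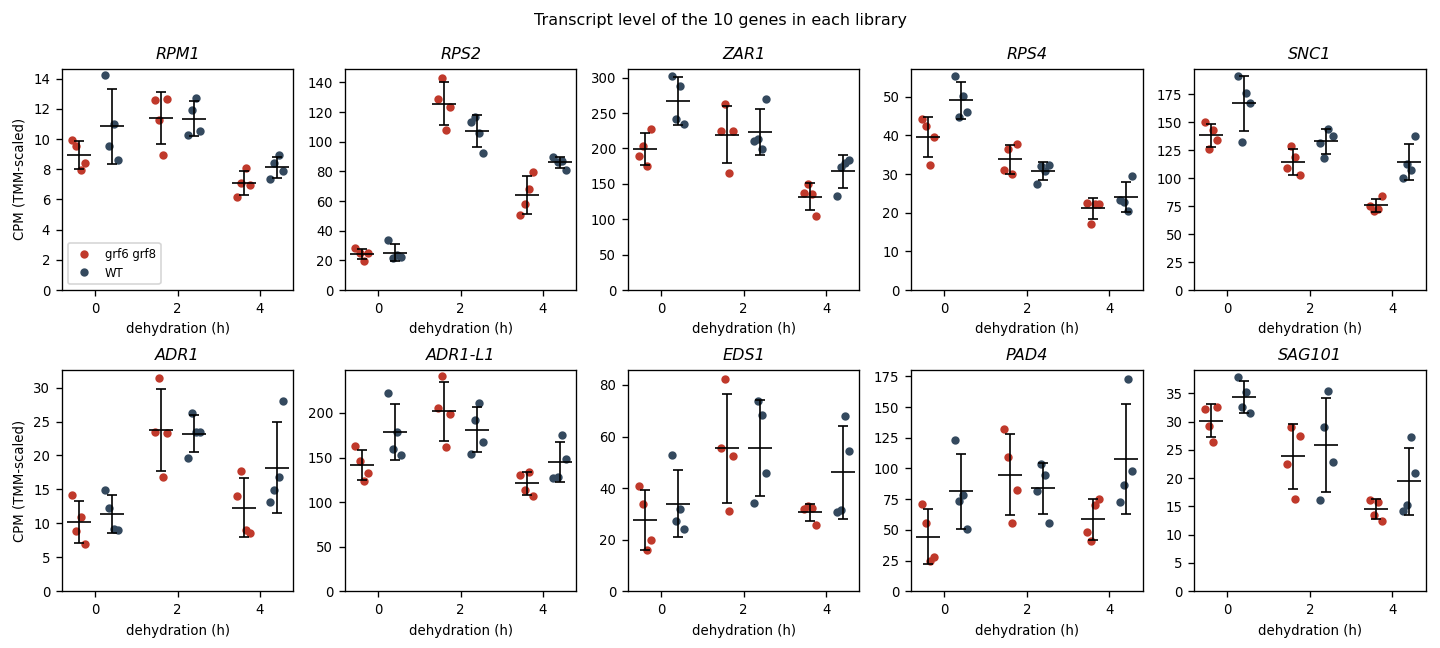
CPM of the 10 genes in every library by hours of dehydration, with grf6 grf8 (red) left of WT (dark). Points are single libraries and bars the mean ± SD of 4. The means of RPS2, ADR1, RPM1, ADR1-L1 and EDS1 are highest at 2 h in both genotypes, although the highest WT library of ADR1 is at 4 h. The means of RPS4, SNC1, ZAR1, SAG101, RPM1 and ADR1-L1 are lowest at 4 h in both.

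EDS1 (AT3G48090, chr3:17755329-17758147, minus strand), the shared partner of PAD4 and SAG101, rose at 2 h in grf6 grf8 but varied strongly between libraries. In grf6 grf8, EDS1 measured 40.9, 33.8, 15.9 and 19.9 CPM at 0 h, 55.5, 82.5, 31.3 and 52.3 CPM at 2 h, and 31.7, 33.1, 32.1 and 25.7 CPM at 4 h. In WT, EDS1 measured 52.8, 27.2, 31.8 and 24.3 CPM at 0 h, 34.1, 73.7, 68.3 and 45.7 CPM at 2 h, and 30.9, 31.6, 67.8 and 54.5 CPM at 4 h. The libraries of 0 h and 2 h overlapped in both genotypes. The log2 change at 2 h was 1.00 in grf6 grf8 (SE 0.34, adjusted p = 0.0223) and 0.70 in WT (SE 0.34, adjusted p = 0.102), and the difference of 0.30 did not pass (adjusted p = 1). Without grf6 grf8 0 h replicate 3, grf6 grf8 0 h replicate 4 or grf6 grf8 2 h replicate 2 the call in grf6 grf8 was lost (adjusted p = 0.086, 0.072 and 0.102), as it was when scaled by library totals (adjusted p = 0.065). Without WT 0 h replicate 1 the WT change passed (0.99, adjusted p = 0.0323). The tandem copy AT3G48080 averaged 14.7, 13.5 and 9.29 CPM in grf6 grf8 and 21.4, 13.5 and 12.4 CPM in WT at 0, 2 and 4 h, and none of its changes passed (adjusted p of 0.0563 at the least, at 4 h in WT).

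PAD4 (AT3G52430, chr3:19431095-19434450, plus strand), the partner of EDS1 in the branch that leads to salicylic acid, also rose at 2 h in grf6 grf8. In grf6 grf8, PAD4 measured 70.9, 55.2, 24.5 and 27.7 CPM at 0 h, 133, 109, 56.0 and 82.2 CPM at 2 h, and 48.1, 41.2, 70.1 and 75.1 CPM at 4 h. In WT, PAD4 measured 123, 73.5, 78.1 and 50.6 CPM at 0 h, 81.6, 104, 95.1 and 55.8 CPM at 2 h, and 72.5, 86.6, 173 and 98.1 CPM at 4 h. The groups of each genotype overlapped between all times. At 2 h PAD4 was 2.13-fold its 0 h level in grf6 grf8 (log2 1.09, SE 0.36, adjusted p = 0.0184) and gave no call in WT (log2 0.05, SE 0.36, adjusted p = 0.932). The call was lost without grf6 grf8 0 h replicate 3 or 4 or grf6 grf8 2 h replicate 1 (adjusted p = 0.0812, 0.075 and 0.0698). The difference of 1.05 between the genotypes did not pass (SE 0.51, unadjusted p = 0.0509, adjusted p = 1). It is a description only, since the genes were chosen on genotype differences. At 4 h the log2 change from 0 h was 0.39 in grf6 grf8 and 0.40 in WT (SE 0.36 each), neither of which passed. Without the 5 libraries high in cell cycle transcripts it passed in grf6 grf8 (1.05, adjusted p = 0.0424).

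SAG101 (AT5G14930, chr5:4828499-4830982, plus strand), the other partner of EDS1, whose pair acts with the NRG1 helpers, fell in both genotypes. In grf6 grf8, SAG101 measured 32.3, 29.2, 26.4 and 32.6 CPM at 0 h, 22.5, 29.1, 16.2 and 27.5 CPM at 2 h, and 16.1, 13.5, 15.8 and 12.4 CPM at 4 h. In WT, SAG101 measured 37.9, 32.6, 35.2 and 31.5 CPM at 0 h, 16.1, 29.1, 35.3 and 22.8 CPM at 2 h, and 14.2, 15.3, 27.2 and 20.9 CPM at 4 h. All 4 h libraries lay below all 0 h libraries of their genotype. The level at 4 h was 48.0% of that at 0 h in grf6 grf8 (log2 -1.06, SE 0.22, adjusted p = 0.000449) and 56.6% in WT (log2 -0.82, SE 0.22, adjusted p = 0.00383). From 2 h to 4 h SAG101 fell in grf6 grf8 (log2 -0.72, adjusted p = 0.0367), a call lost without grf6 grf8 2 h replicates 1, 2 or 4 or grf6 grf8 4 h replicates 2 or 4 (adjusted p up to 0.112). That call was also lost with library totals (adjusted p = 0.098), only the groups compared (0.0567) or the replicate block (0.0533), and without the 5 libraries high in cell cycle transcripts (0.0739). In WT the 2 h value of -0.41 (adjusted p = 0.137) passed without WT 2 h replicate 3 (-0.60, adjusted p = 0.0415). Within the EDS1 family, SAG101 thus fell at 4 h where EDS1 and PAD4 gave values above 0 that did not pass.

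The difference between grf6 grf8 and WT, on which the genes were chosen, is described without a test. At 0 h all 10 genes were lower in grf6 grf8, beside 47.1% of all genes tested, with a median log2 difference of -0.29. At 2 h 4 of 10 were lower, beside 51.1%, with a median of 0.02, and at 4 h all 10 were lower, beside 47.7%, with a median of -0.43. Over the 3 times all 10 were lower, beside 48.3%, with differences between -0.52 (PAD4) and -0.08 (RPS2). PAD4 differed by -0.87 (SE 0.36) at 0 h and by -0.88 (SE 0.36) at 4 h, and SNC1 by -0.60 (SE 0.12) at 4 h. Without WT 4 h replicate 3 the PAD4 value at 4 h was -0.55, within the range of -0.69 to -0.50 that SNC1 took with single libraries left out. The libraries of both genotypes did not overlap for ZAR1 and RPS4 at 0 h, for RPS2 and SNC1 at 4 h, and overlapped for each of the 10 at 2 h. For RPS4 the gap was narrow, with at most 44.2 CPM in grf6 grf8 and at least 44.7 CPM in WT. The share of all genes without such overlap was not computed, so this is no result about the set. Of 42 other NLR and TIR genes that were tested, 38, 26 and 40 were lower in grf6 grf8 at 0, 2 and 4 h, and 42 over the 3 times. The median of these 42 was -0.23, -0.08 and -0.29 at 0, 2 and 4 h. The choice rested on NLR genes as a class, so these 42 are described too and are no outside check.

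The size of the genotype difference rested in part on single libraries. Without WT 0 h replicate 1, a library high in PR1, 8 of the 10 genes were lower at 0 h, with a median of -0.17. Without grf6 grf8 2 h replicate 3, SNC1 alone of the 10 was lower at 2 h, with a median of 0.18, and without WT 2 h replicate 3 a count of 2 of the 10 was lower. Without the 5 libraries high in cell cycle transcripts, 10, 4 and 9 of the 10 were lower at 0, 2 and 4 h, with medians of -0.38, 0.04 and -0.41. Those 5 include grf6 grf8 0 h replicate 1, which was high in PR1 as well. Values without that library alone are not given here.

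**Figure D4:**
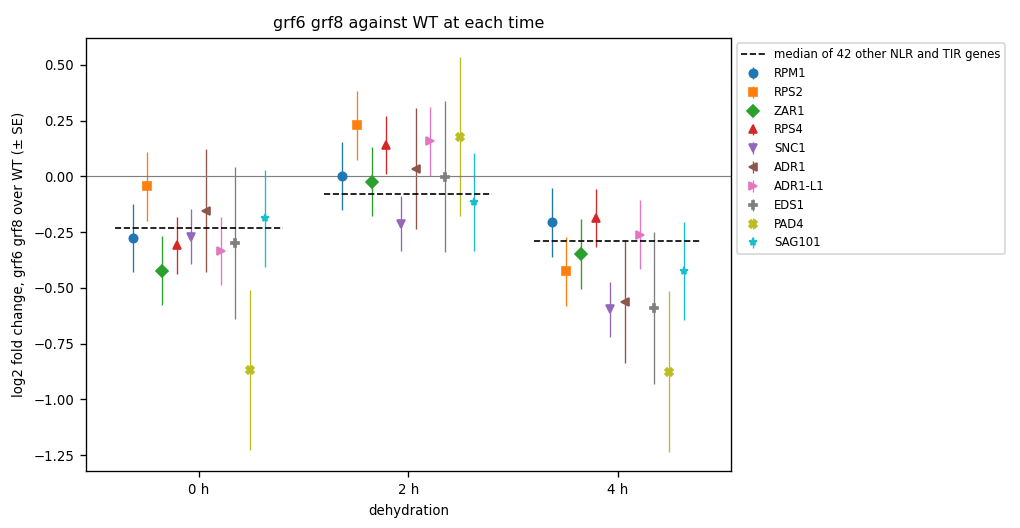
Log2 fold change of grf6 grf8 over WT with its SE for each of the 10 genes at 0, 2 and 4 h, with the median of 42 other NLR and TIR genes as a dashed line. All 10 genes lie below 0 at 0 h and 4 h, and 4 of 10 at 2 h. The 42 are mostly of the class whose lower level led to the choice, so the line is no outside check.

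Related genes of immunity were counted by list. Among 42 other NLR and TIR genes, 1 rose and 23 fell at 4 h against 0 h in grf6 grf8 (median log2 change -0.65), where 28.1% of all genes rose and 23.1% fell (median 0.07). In WT 2 rose and 21 fell (median -0.57), where 27.8% of all genes rose and 22.2% fell (median 0.06). Whether the list differs from all genes was not tested. Other CNL genes gave 0 risen and 5 fallen of 9 in each genotype. LOV1, a CNL for sensitivity to a fungal toxin, fell (-1.24 in grf6 grf8 and -1.14 in WT), as did RPP13, a downy mildew receptor (-0.81 in grf6 grf8 and -0.74 in WT). SUMM2, which guards a MAP kinase cascade, gave -0.22 in grf6 grf8 (adjusted p = 0.33) and fell in WT (-0.57, adjusted p = 0.0119). Other TNL genes gave 1 risen and 14 fallen of 26 in grf6 grf8 and 2 risen and 12 fallen in WT. Among these LAZ5 fell to a mean of 9.95 CPM at 4 h in grf6 grf8, against 24.5 CPM at 0 h, and to 14.6 CPM in WT, against 29.5 CPM (adjusted p = 1.36e-07 and 3.11e-06), while WRKY19, a TNL fused to a WRKY domain, rose by 1.48 in grf6 grf8 and by 1.54 in WT (adjusted p = 3.08e-06 and 2.16e-06).

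Of 4 other helper NLR genes 1 fell at 4 h in each genotype, AT5G66900 (-1.05 in grf6 grf8 and -1.20 in WT). Over all genes 23.1% fell at 4 h in grf6 grf8 and 22.2% in WT, so the helper count lies near these shares. All 3 short TIR genes tested fell in both genotypes. The log2 changes were -2.67 in grf6 grf8 and -2.32 in WT for AT3G04210, -0.86 and -0.78 for RLM3, and -1.28 and -1.46 for CHS1. Of the lists, RLM1, ADR1-L3 and AT1G17615 had too few counts to be tested.

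Of 19 genes for proteins that NLRs guard or that adjust NLR levels, 5 rose and 5 fell at 4 h in grf6 grf8, where 28.1% of all genes rose and 23.1% fell. In WT 4 rose and 6 fell, where 27.8% of all genes rose and 22.2% fell. These counts lie near the shares over all genes and are no result about the list. RIN4, the protein guarded by RPS2 and RPM1, averaged 34.2, 15.8 and 13.7 CPM in grf6 grf8 and 35.3, 17.8 and 11.4 CPM in WT at 0, 2 and 4 h, with log2 changes at 4 h of -1.32 in grf6 grf8 and -1.63 in WT (adjusted p = 2.69e-05 and 2.53e-06). RIN4 transcripts thus fell where those of RPS2 rose, whereas RPM1 was not called at 2 h and fell at 4 h in WT. RIN4 protein was not measured, and a link between these transcripts was not tested. MOS3, a nucleoporin needed for SNC1 signalling, fell (-1.37 in grf6 grf8 and -1.13 in WT). BON1, a copine that restrains SNC1, rose by 0.89 in grf6 grf8 and by 0.74 in WT, and the kinase PBS1 rose by 0.61 and 0.44.

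Of 18 genes of the salicylic acid and pipecolate branch downstream of EDS1, 10 rose and 1 fell at 2 h in grf6 grf8, and 5 rose and 1 fell in WT. Of all genes, 23.2% rose and 20.3% fell in grf6 grf8, and 23.1% rose and 19.2% fell in WT. The median log2 change at 2 h was 1.50 in grf6 grf8 and 0.61 in WT, beside 0.01 and 0.04 over all genes. At 4 h, 4 rose and 4 fell in grf6 grf8, where 28.1% of all genes rose and 23.1% fell. In WT 6 rose and 3 fell, where 27.8% of all genes rose and 22.2% fell. These 4 h counts lie near the shares over all genes and are no result about the list. The median at 4 h was 0.64 in grf6 grf8 and 1.37 in WT, beside 0.07 and 0.06 over all genes. The difference of response between the genotypes called none of the 18 at either time with edgeR or DESeq2. With edgeR, 1 had an unadjusted p under 0.05 at 2 h and 0 at 4 h, beside 467 and 449 of the 18841 genes tested. PBS3, which conjugates isochorismate on the way to salicylic acid, rose by 3.09 at 4 h in grf6 grf8 and by 4.32 in WT (SE 0.65 and 0.68). NUDT7, a hydrolase that restrains EDS1 signalling, rose by 1.33 and 1.41, and AT5G52810 by 1.70 and 1.38. NPR4, a salicylic acid receptor that represses defence genes, fell (-1.54 in grf6 grf8 and -1.79 in WT). Genotype values of these 18 genes were below 0 for 16, 10 and 18 at 0, 2 and 4 h, beside 47.1%, 51.1% and 47.7% of all genes. The count at 2 h lies near that share. The part of WT 0 h replicate 1 and grf6 grf8 0 h replicate 1, each the highest in PR1 of its group, in the count at 0 h was not tested.

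Receptors and kinases of cell-surface immunity gave 11 risen and 1 fallen of 22 at 2 h in grf6 grf8, and 7 risen and 1 fallen in WT, where 23.2% of all genes rose and 20.3% fell in grf6 grf8, and 23.1% rose and 19.2% fell in WT. At 4 h 4 rose and 2 fell in grf6 grf8, and 4 rose and 3 fell in WT, which is below the shares of all genes given above. None of the 22 was called for a difference of response between the genotypes at either time with edgeR or DESeq2. With edgeR, 1 had an unadjusted p under 0.05 at 2 h and 0 at 4 h, beside 467 and 449 of the 18841 genes tested. PEPR1 and PEPR2, receptors of endogenous Pep peptides, rose at 4 h by 2.01 and 2.15 in grf6 grf8, and by 1.97 and 1.71 in WT. FLS2, the flagellin receptor, gave -1.02 in grf6 grf8 (adjusted p = 0.0509) and fell in WT (-1.48, adjusted p = 0.00742). The cytoplasmic kinase PBL1 fell (-1.45 in grf6 grf8 and -1.37 in WT).

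**Figure D5:**
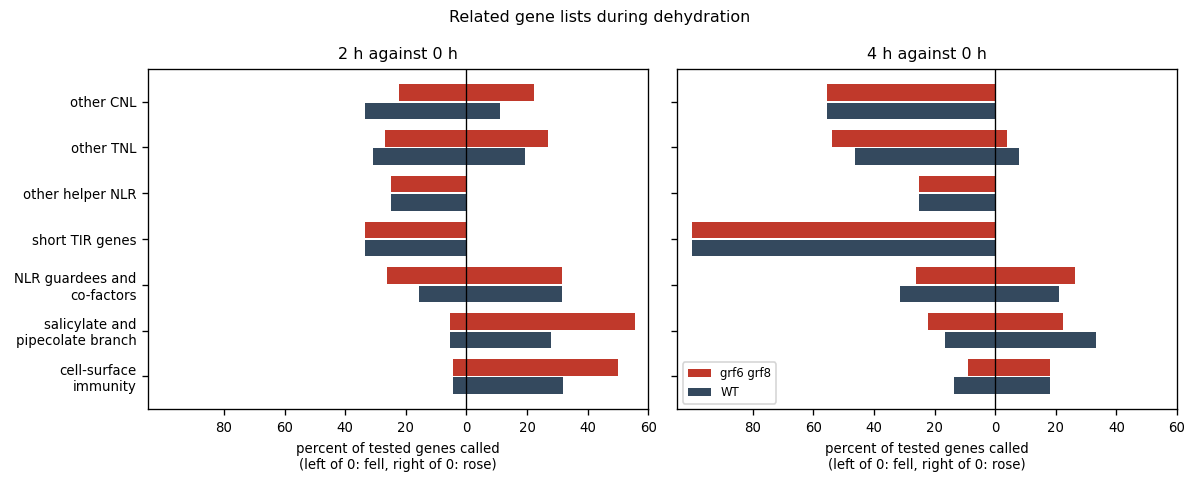
Percent of the tested genes of each list that fell (left) or rose (right) at 2 h and 4 h against 0 h, in grf6 grf8 (red) and WT (dark). At 4 h the NLR and TIR lists lie mostly to the left of 0, and at 2 h the salicylate and cell-surface lists lie to the right.

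Each gene was compared with 10939 other genes of at least 10 CPM on average for likeness of level over the 24 libraries, by Pearson's r of log2 CPM. The libraries share the time course and their scaling, so r is given as a description. Nearest to RPS2 were PMAT1 (0.970), DTX35 (0.969) and CAD5 (0.967), and nearest to RPM1 were NPR1 (0.935), AT1G66920 (0.918) and SGT1A (0.913). NPR1, the salicylic acid receptor that activates defence genes, was also among the 3 nearest to ADR1-L1 (0.937), after AT1G35710 (0.967). For ZAR1 they were PLDGAMMA1 (0.899), AT1G63860 (0.895) and LAZ5 (0.891), for RPS4 RK1 (0.947), CYP704A2 (0.947) and AT5G07360 (0.940), and for SNC1 AT1G63350 (0.921), OPT4 (0.912) and ARI15 (0.902). ADR1 was nearest to TSB2 (0.920), a tryptophan synthase gene, then to AT2G04400 (0.912) and cpHsc70-2 (0.907). EDS1 was nearest to XBAT34 (0.935), XLG2 (0.931) and AT5G52760 (0.931), PAD4 to AT5G25260 (0.926), FLOT1 (0.899) and AT5G24200 (0.891), and SAG101 to AT2G40270 (0.958), AT3G56410 (0.948) and ACA.l (0.937).

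The 250 bases upstream of the annotated start were searched on both strands for the core of the W box (TTGAC), bound by WRKY factors, of the ABRE (ACGTG), bound by ABA-responsive bZIP factors, and of the DRE (CCGAC), bound by DREB factors. The W box core was found before 4 of the 10 genes (RPS2, SNC1, EDS1 and SAG101), beside 44.9% of 27443 windows of all genes. The DRE core was found before 2 (RPS4 and EDS1), beside 12% of all windows, and the ABRE core before none, beside 22.9%. The RPS4 window holds part of RRS1, and its DRE core, 43 bases before the RPS4 start, lies inside RRS1. The SAG101 window holds part of AT5G14920. None of the cores overlapped another in these windows. RPS2, which rose most, has 2 W box cores, 98 and 24 bases before its start. A match is a run of letters and was not tested as a site. Printed are the windows of RPS2 and ADR1, which rose at 2 h in both genotypes, of EDS1, which rose in grf6 grf8, and of SNC1, which fell, 5′ to 3′ on the coding strand from RefSeq build TAIR10.1, with the cores found in capitals. The RPS2 window also holds part of AT4G26095, while no other gene is annotated in the other 3.
RPS2 (chr4:13224088-13224337, plus strand): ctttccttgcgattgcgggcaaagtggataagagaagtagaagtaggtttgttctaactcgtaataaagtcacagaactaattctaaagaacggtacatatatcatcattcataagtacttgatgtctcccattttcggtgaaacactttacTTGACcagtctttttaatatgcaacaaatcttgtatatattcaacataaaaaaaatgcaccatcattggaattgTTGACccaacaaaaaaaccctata
ADR1 (chr1:12168518-12168767, plus strand): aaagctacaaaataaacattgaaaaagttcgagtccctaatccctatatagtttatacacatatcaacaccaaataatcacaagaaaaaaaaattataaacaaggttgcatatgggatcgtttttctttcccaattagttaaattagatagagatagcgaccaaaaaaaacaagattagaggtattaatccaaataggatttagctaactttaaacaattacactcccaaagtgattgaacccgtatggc
EDS1 (chr3:17758148-17758397, minus strand): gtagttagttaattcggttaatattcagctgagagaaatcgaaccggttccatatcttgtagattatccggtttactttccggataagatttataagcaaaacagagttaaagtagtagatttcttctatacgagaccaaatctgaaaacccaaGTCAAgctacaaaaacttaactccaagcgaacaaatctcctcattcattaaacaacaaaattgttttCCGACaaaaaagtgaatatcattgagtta
SNC1 (chr4:9505973-9506222, minus strand): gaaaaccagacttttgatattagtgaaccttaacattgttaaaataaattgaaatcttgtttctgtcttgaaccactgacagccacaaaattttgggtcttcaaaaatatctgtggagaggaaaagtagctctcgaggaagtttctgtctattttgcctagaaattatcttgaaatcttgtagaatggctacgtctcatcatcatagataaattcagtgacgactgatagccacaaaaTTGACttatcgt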

How the data were processed

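Messenger RNA of 24 libraries was sequenced. The deposited files list, for each gene, an expected count (whole numbers) and FPKM computed by the authors, per the file headers. The submitters' processing notes name build TAIR10 and, without their roles, edgeR, DESeq2, RSEM, StringTie 1.3.1, HISAT2, Bowtie2 2.2.8 and fastp 0.18.0. The members and gene lists were chosen with earlier results of these data known.

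Expected counts were tested with edgeR 4.0.16 (R 4.3.3, quasi-likelihood, group means, TMM factors 0.843 to 1.28, two-sided), after a low-count filter that kept 18841 of 27664 genes, with Benjamini-Hochberg adjustment over all of them and a threshold of 0.05. Levels are CPM after TMM scaling, computed with edgeR. The deposited FPKM served for levels between genes only. DESeq2 1.42.0, other scalings and filters, a replicate block, a cell cycle covariate and left-out libraries were alternatives.

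All members were named, with EDS1's tandem copy, RRS1, RPP4, GRF6 and GRF8. Each related list gave the up to 4 genes with the smallest adjusted p at 4 h against 0 h in WT, and each member its 3 nearest genes by Pearson's r. Sequences came from RefSeq TAIR10.1, not from the libraries. The TNL codons and 1 gene that the rule named are not reported here.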

Additional observations from a re-analysis of the deposited data

Results flagged for a closer look

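Of 60 groups of 4 libraries (10 genes in 6 groups), 1 held a library far from the others. RPS4 measured 17.2 CPM in grf6 grf8 4 h replicate 2, where the other 3 libraries of that group measured 22.4 to 22.5 CPM. The gap was 0.978 of the group's whole range, above Dixon's 95% critical value, which chance passes in about 1 in 20 groups. The cause was not tested.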

How the results depend on the processing

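Over all alternatives the members called numbered 3 to 5 (WT, 2 h against 0 h), 5 to 7 (WT, 4 h against 0 h), 5 to 6 (grf6 grf8, 4 h against 0 h) and 6 to 8 (grf6 grf8, 4 h against 2 h), and 0 in each difference of response. For WT at 4 h against 2 h the count of 0 became 1 with DESeq2, 3 with the cell cycle covariate and 1 without the 5 libraries high in cell cycle transcripts, and 0 to 1 with single libraries left out. For grf6 grf8 at 2 h against 0 h the count of 5 became 3 with library totals, and 3 to 6 with single libraries left out. Members lower in grf6 grf8 at 2 h, 4 of 10, were 1 to 6 with single libraries left out. The cause was not tested.

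Uncalled values changed sign in 34 cases. ADR1 in grf6 grf8 at 4 h was -0.0066 with the covariate, and ADR1-L1 in WT at 2 h was -0.00783 without the low-count filter. The 4 h difference of EDS1 was 0.00395 without the 5 libraries, and that of PAD4 was 0.017 with the replicate block and 0.62 without the 5 libraries. The 2 h difference of SNC1 was -0.0149 with library totals. With single libraries left out, the ranges were -0.0616 to 0.14 (ADR1-L1), -0.13 to 0.31 (PAD4) and -0.0372 to 0.22 (RPM1) in WT at 2 h, and -0.0841 to 0.40 for EDS1 in grf6 grf8 at 4 h. For the 4 h difference they were -0.0503 to 0.18 (ADR1-L1), -0.28 to 0.32 (PAD4), -0.0861 to 0.16 (RPM1) and -0.0321 to 0.14 (ZAR1), and for the 2 h difference -0.087 to 0.26 (SAG101) and -0.0101 to 0.16 (SNC1).

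Same-numbered replicates did not pair the libraries throughout: 21 of 60 correlations of their deviations were over 0.1 (-0.783 to 0.628), and 17 of 60 were best with their own number. Between the genotypes at 0 h they were 0.329, 0.0936, 0.315 and 0.237 for replicates 1 to 4, and replicates 1, 3 and 4 were best with their own number. At 4 h they were -0.493, -0.428, 0.401 and -0.783. Whether replicates share a batch at 0 h was not tested. With the replicate block 7 members were called in grf6 grf8 at 4 h against 2 h, where SAG101 missed (adjusted p = 0.0533), and the other counts of calls did not change.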
